A study of Homo sapiens with 6 samples.

Results

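STC1 and STC2 encode the stanniocalcins, and both were counted in Kelly cells, an established human neuroblastoma line, with and without knockdown of METTL3. They were the 2 rows of the 19923 protein-coding genes in the count tables whose symbols are STC1 or STC2, and both passed the filter on low counts, as did 15311 genes in all. STC1 was chosen by its large rise in the comparison described here, measured in these libraries, so its values are a description without a test. STC2 entered by its name alone.

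Stanniocalcins are secreted glycoprotein hormones that form disulfide-linked dimers, first known from the control of calcium in fish. In mammals they act mostly on nearby cells, and both can bind and inhibit the pappalysins PAPP-A and PAPP-A2, proteinases that cleave certain IGF-binding proteins and so free insulin-like growth factors. STC2 is a known target of ATF4, the transcription factor of the integrated stress response, and both genes are known to respond to low oxygen through hypoxia-inducible factors.

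Kelly cells carry an amplified MYCN gene, and the labels give their genotype as WT. In the siControl group (3 libraries) a control siRNA was transfected, and in the siMETTL3 group (3 libraries) an siRNA against METTL3, the catalytic subunit of the enzyme that writes N6-methyladenosine in mRNA. Cells were transfected with a lipid reagent for 72 hours, and poly(A) RNA was then sequenced. The labels give the siRNA at 20 μM and do not say whether this is the concentration on the cells or that of a stock. The headers carry a single siRNA name for the siMETTL3 libraries, so effects of that siRNA on other transcripts and of METTL3 loss cannot be told apart. Nothing in the labels says that the replicates came from separate cultures, so p-values measure only the spread between these libraries, which may be technical.

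Libraries held between 15430000 and 21565013 counts, and 0 of 15 library pairs were identical. METTL3 itself was at 53.5, 52.8 and 56.2 CPM (counts divided by the scaled library size in 1000000s) under siControl and at 33.0, 31.8 and 34.3 under siMETTL3. That left 61.0% of the control level (log2 fold change -0.71, edgeR quasi-likelihood test, Benjamini-Hochberg adjusted p = 4.68e-06). The METTL3 span overlaps TOX4, with which it can share reads, so the level left may include TOX4 reads. All 10 noradrenergic neuroblastoma markers passed the filter, and their summed level was between 3383 and 3613 CPM in siControl and between 4555 and 4911 in siMETTL3. Of these markers 6 rose and 1 fell, where 18.6% of all tested genes were called higher and 19.2% lower. The marker that fell, named after its value was seen, was ISL1, a neuronal transcription factor, by 1.18 on the log2 scale (edgeR adjusted p = 6.06e-08). Of 9 mesenchymal markers 6 were tested and 3 rose (VIM, PRRX1 and COL1A1), with sums of 141 to 160 CPM in siControl and 165 to 175 in siMETTL3. COL1A1 lost its edgeR call when siControl replicate 2 (adjusted p = 0.0708), siMETTL3 replicate 2 (0.0683) or siMETTL3 replicate 3 (0.0805) was left out, as did PRRX1 without siMETTL3 replicate 1 (0.0549) or siMETTL3 replicate 3 (0.0579). Sums of the immune, Schwann cell, endothelial and epithelial markers were at most 10.4 CPM in every library, and no marker was at 0 in all libraries. Among those 4 lists VWF (endothelial) and KRT19 (epithelial) rose, by 0.68 and 1.15 on the log2 scale (edgeR adjusted p = 0.00592 and 0.00869). The part of these marker shifts in the results was not tested. As these are bulk samples, fewer cells expressing a gene and less of its RNA per cell cannot be told apart.

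STC1 mRNA was several times more abundant after METTL3 knockdown. STC1 had 132, 155 and 98 counts under siControl and 970, 1019 and 933 under siMETTL3. Scaled to library size, STC1 was at 6.12, 7.76 and 6.50 CPM in siControl and at 47.1, 46.8 and 45.4 CPM in siMETTL3. Every siMETTL3 library lay far above every siControl library, and the siMETTL3 libraries lay close together. The means were 6.79 ± 0.856 CPM (SD, n = 3) and 46.5 ± 0.903 CPM (SD, n = 3), and the coefficient of variation was 12.6% in siControl and 1.94% in siMETTL3. The log2 fold change was 2.77 with a standard error (SE) of 0.10, or 6.83-fold. Each siMETTL3 library stood at 669% to 694% of the siControl mean.

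Among the 11764 tested genes whose average log2 CPM reached 3, STC1 had the fifth largest log2 fold change, and it was 11th among all 15311 tested genes. The gene just above it was TKTL1, which encodes a transketolase-like protein and whose span overlaps TEX28, at 2.79. Just below was DYSF, which encodes the membrane repair protein dysferlin, at 2.68. These places describe how STC1 came to be chosen.

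STC2 was slightly lower after METTL3 knockdown, by an amount that did not pass the genome-wide test. It had 491, 420 and 317 counts in siControl and 323, 403 and 408 in siMETTL3. In CPM these were 22.8, 21.0 and 21.0 in siControl and 15.7, 18.5 and 19.9 in siMETTL3. All 3 siMETTL3 libraries lay below all 3 siControl libraries, but the nearest values, 19.9 and 21.0, were close, and siMETTL3 replicate 1 lay farthest from the controls. The mean was 21.6 ± 1.00 CPM (SD, n = 3) in siControl and 18.0 ± 2.13 CPM (SD, n = 3) in siMETTL3, which is 83.3% of the control level. The log2 fold change was -0.26 (SE 0.10), with an unadjusted p of 0.0239 and an adjusted p of 0.0601 in edgeR's quasi-likelihood test, against a threshold of 0.05. Genome-wide, 37.8% of tested genes passed that threshold, 18.6% as higher and 19.2% as lower in siMETTL3. Groups that did not overlap were also common, with siMETTL3 entirely above siControl for 24.8% of tested genes and entirely below for 25.1%, so the separation of the STC2 values is near the background. Of the 11764 genes above the expression limit, 18.2% had a lower log2 fold change than STC2.

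Whether STC2 passed the threshold depended on which libraries were included. With siMETTL3 replicate 1 left out, the log2 fold change was -0.17 and the adjusted p 0.259 by the same edgeR test. With siMETTL3 replicate 3 left out it was -0.34 with an adjusted p of 0.0462, and with siControl replicate 3 left out -0.28 with an adjusted p of 0.0356, both past the threshold. For STC1 the log2 fold change stayed between 2.69 and 2.88 when any library was left out.

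**Figure D1:**
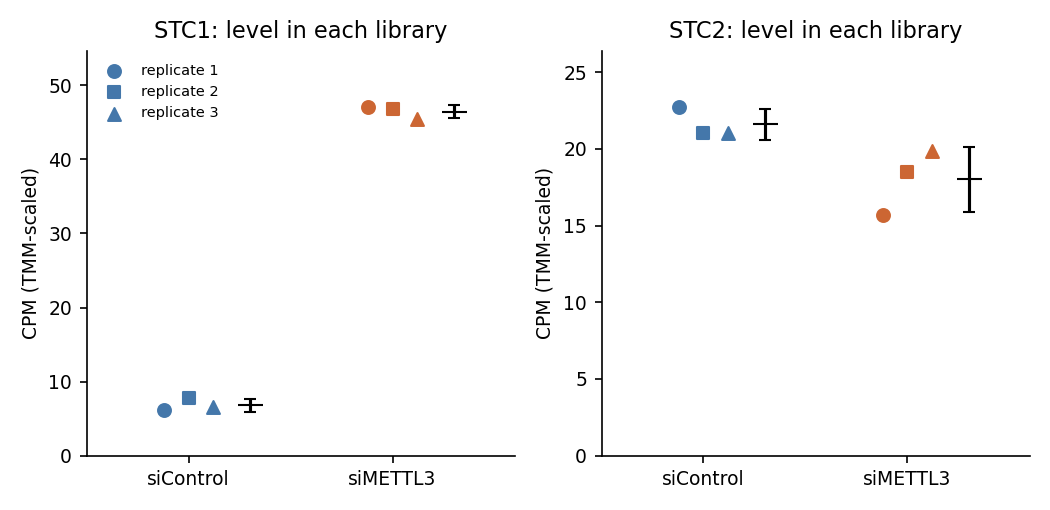
Level of STC1 (left) and STC2 (right) in CPM, after TMM scaling (trimmed mean of M-values), in each siControl (blue) and siMETTL3 (orange) library; marker shapes give the replicate number, and the bars are the mean ± SD of 3 libraries. The STC1 groups are far apart (6.79 against 46.5 CPM), while the STC2 groups lie next to each other (21.6 against 18.0 CPM).

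**Figure D2:**
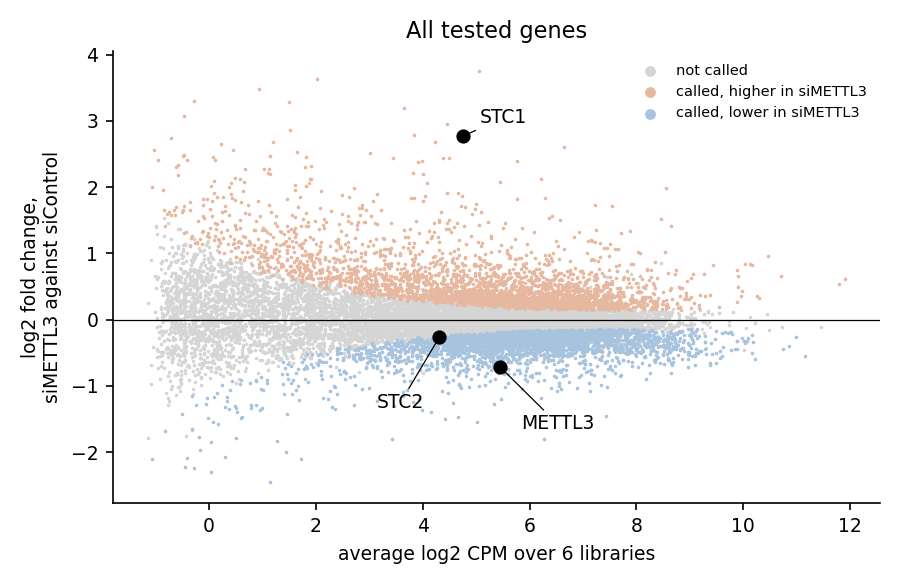
Log2 fold change, siMETTL3 against siControl, against average log2 CPM over 6 libraries, 1 point per tested gene (15311 genes); called genes (adjusted p under 0.05) are orange where higher and blue where lower. STC1, at 2.77, lies at the upper edge of the genes, and STC2, at -0.26, lies at the border of the called genes, above METTL3 at -0.71.

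Because longer transcripts yield more reads, the genes were set against each other only per kilobase (kb) of canonical transcript. In siControl STC2 was the higher gene, at 5.35, 4.94 and 4.95 CPM per kb, with STC1 at 1.58, 2.01 and 1.68. In siMETTL3 the order was turned, with STC1 at 12.2, 12.1 and 11.7 CPM per kb and STC2 at 3.69, 4.35 and 4.67. The ratio of STC1 to STC2 per length was 0.296, 0.406 and 0.340 under siControl and 3.30, 2.78 and 2.51 under siMETTL3. STC1 thus made up 25.7 ± 3.04% (SD, n = 3) of the summed stanniocalcin level in siControl and 74.0 ± 2.63% (SD, n = 3) in siMETTL3. The sum itself was 6.84 ± 0.181 CPM per kb in siControl and 16.2 ± 0.323 in siMETTL3. Since counts covered whole gene spans, the ratio was also taken per kb of span, and it was between 0.309 and 0.424 in siControl and between 2.63 and 3.45 in siMETTL3. These ratios carry the rise for which STC1 was picked and were not tested.

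**Figure D3:**
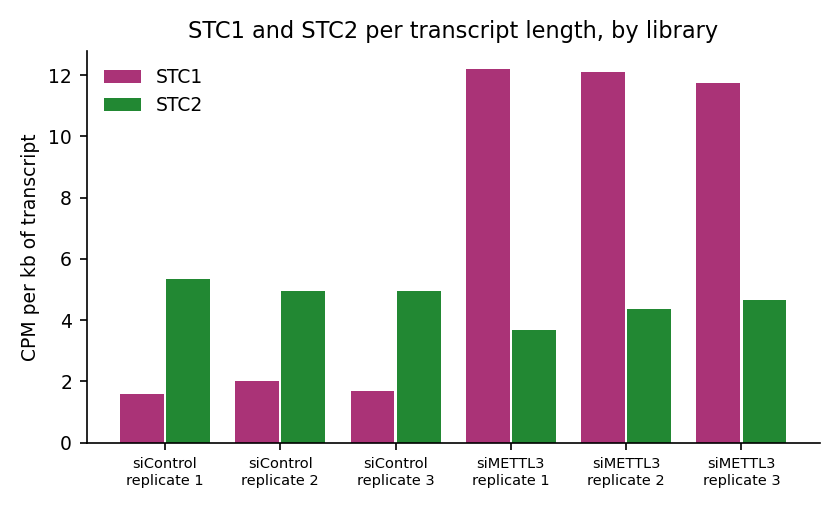
Level of STC1 and STC2 in CPM per kb of canonical transcript in each of the 6 libraries. STC2 is the higher bar in the 3 siControl libraries (4.94 to 5.35) and STC1 in the 3 siMETTL3 libraries (11.7 to 12.2).

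The paralogs share their gene layout. In the canonical transcripts of GENCODE release 44, both have 4 exons, with 143 bases in exon 2 and 212 bases in exon 3 of each. The first exon has 401 bases in STC1 and 372 in STC2, and the last has 3112 and 3527. The coding sequence spans 744 bases in STC1 (247 amino acids) and 909 in STC2 (302 amino acids). The 3′ untranslated region (UTR) takes up 73.4% of either transcript, with 2841 bases in STC1 and 3124 in STC2, against a median of 1291 over the tested genes. Long 3′ UTRs are common, however, as those of STC1 and STC2 were longer than 76.7% and 79.7% of the tested genes' 3′ UTRs.

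METTL3 methylates adenosines in a short consensus of which GGACT, written as DNA, is a common form. The STC1 transcript holds 4 copies of GGACT, 1 in the coding sequence and 3 in the 3′ UTR. STC2 has 5, with 1 in the coding sequence and 4 in the 3′ UTR. Per kb this comes to 1.03 in STC1 and 1.18 in STC2, against a median of 0.929 over 14591 tested genes with a transcript. At least 1 copy is found in 91.3% of these genes, and 56.5% and 64.5% of them have fewer copies per kb than STC1 and STC2. STC1 and STC2 are alike in this count. Any part of these sites in the change of either gene was not tested. A match of letters is no measurement of methylation, which was not analysed here.

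STC2 lies on chromosome 5 (173314713 to 173329503, GRCh38) on the minus strand and overlaps no other gene of the tables. Its promoter is shown because STC2 is described both as a stress and as a hypoxia target, and cores of the elements for either can be looked for in it. Of the 2 stanniocalcins, 1 matched the RefSeq promoter table (GRCh38.p14). The 250 bases before the start of its canonical transcript (chr5:173328415-173328664, minus strand), which lie within the counted gene span, are given 5′ to 3′, with matches to GCGTG, a hypoxia response element core, in capitals on either strand:
STC2 promoter: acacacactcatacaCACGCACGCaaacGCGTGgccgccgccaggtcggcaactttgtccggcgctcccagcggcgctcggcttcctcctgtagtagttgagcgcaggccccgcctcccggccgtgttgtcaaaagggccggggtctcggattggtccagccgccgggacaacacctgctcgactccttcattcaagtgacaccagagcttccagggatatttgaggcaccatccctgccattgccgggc
The window holds 3 matches, 235, 231 and 222 bases before the start, of which the first 2 read CACGC on the strand shown and overlap by 1 base. At least 1 match to GCGTG, on either strand, is found in 39.4% of 15085 promoter windows of the same length. The other hypoxia core, ACGTG, and TGATGNAA, the core of the amino acid response element bound by ATF4, are not among the letters of this window. They are found in 20.9% and 2.21% of all windows, and 50.7% hold at least 1 of the hypoxia cores ACGTG and GCGTG. GC content in the STC2 window is 63.6%.

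The stanniocalcins' known enzyme targets and the growth factor axis they act on were examined next, in a list of 18 genes from pappalysins to IGF receptors. Of these, 14 were tested, 4 rose (28.6%, against 18.6% of all tested genes) and 1 fell (7.14%, against 19.2%). With so few genes, these shares are not set apart from those of all tested genes. The median log2 fold change was 0.12, and it was -0.0021 over all tested genes. PAPPA, which encodes the proteinase PAPP-A, was at 24.6, 21.8 and 30.2 CPM in siControl and at 39.6, 38.4 and 37.2 CPM in siMETTL3. Its groups did not overlap, and it rose by 0.60 on the log2 scale (SE 0.10, edgeR adjusted p = 0.000558). PAPPA2, which encodes the related PAPP-A2, rose from 3.14 ± 0.727 to 5.16 ± 0.283 CPM (SD, n = 3 each; log2 fold change 0.72, edgeR adjusted p = 0.0111), but not when siMETTL3 replicate 2 was left out (adjusted p = 0.0502). In the siMETTL3 libraries both proteinases that stanniocalcins inhibit thus had more mRNA. Of all tested genes 18.6% rose in the same comparison, and any link to STC1 was not tested.

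Among the substrates of these proteinases, IGFBP5, a binding protein cleaved by both, was at 16.9, 18.0 and 13.4 CPM in siControl and at 28.9, 32.7 and 31.1 CPM in siMETTL3. It rose by 0.93 on the log2 scale (edgeR adjusted p = 1.97e-05). IGFBP4, the classical PAPP-A substrate, had a log2 fold change of -0.21 (edgeR adjusted p = 0.174), and its groups overlapped. Without siControl replicate 1 the IGFBP4 value was -0.30 with an adjusted p of 0.0299. The other tested IGF-binding proteins, IGFBP2 and IGFBP3, were at -0.15 and -0.18 and were not called (edgeR adjusted p = 0.0724 and 0.528). IGF2, a growth factor ligand, rose from 805 ± 35.3 to 1440.4 ± 64.4 CPM (SD, n = 3 each; log2 fold change 0.84, edgeR adjusted p = 2.97e-07), although its span overlaps INS-IGF2 and AC132217.2, with which it can share reads. The gene that fell was IRS2, an adaptor below the IGF and insulin receptors, by 0.49 on the log2 scale (edgeR adjusted p = 0.000736). The number of genes of this list that fell was 2 or 3 when siMETTL3 replicate 2 or siControl replicate 1 was left out. The number that rose was then 3 or 5.

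ATF4 and many of its target genes fell. STC2, usually counted among those targets, was lower but did not pass the threshold. Most unfolded protein response genes and some other genes of the same list were not called. Of 33 listed genes 32 were tested, 19 fell (59.4%, against 19.2% of all tested genes) and 1 rose (3.12%, against 18.6%). The median log2 fold change was -0.45. ATF4 itself fell from 268 ± 3.66 to 150.1 ± 5.28 CPM (SD, n = 3 each; log2 fold change -0.84, edgeR adjusted p = 1.17e-07). ASNS, which encodes asparagine synthetase, was at 160 ± 12.3 CPM in siControl and fell to 78.0 ± 1.41 CPM in siMETTL3, a log2 fold change of -1.03 (edgeR adjusted p = 8.56e-08). SLC7A11, the cystine transporter, fell by 1.20 on the log2 scale, and PHGDH, the entry enzyme of serine synthesis, fell by 0.90 (edgeR adjusted p = 2.39e-07 and 4.27e-08). STC2, at -0.26, had a smaller decrease than 19 of the 32 genes and a larger one than HSPA5, which encodes the chaperone BiP (-0.12, edgeR adjusted p = 0.104). Of the unfolded protein response genes, XBP1 and HERPUD1 fell (log2 fold change -0.44 and -0.25, edgeR adjusted p = 0.000269 and 0.0155). EIF2AK3, PPP1R15A, HSPA5, HYOU1, SDF2L1, DNAJB9, CRELD2 and EDEM1 were not called. Nor were ATF5, PSPH, GDF15 and CEBPB (edgeR adjusted p = 0.591, 0.234, 0.137 and 0.735). The gene of the list that rose was SLC7A5, an amino acid transporter, by 0.27 (edgeR adjusted p = 0.00939). That call was lost without siMETTL3 replicate 1 (adjusted p = 0.0602) and without siMETTL3 replicate 2 (adjusted p = 0.0510).

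Targets and regulators of hypoxia-inducible factors, with both stanniocalcins among the known targets, included many that rose. Of 34 listed genes 33 were counted, as VEGFA was not among the counted genes, and 31 were tested. Of the tested genes 16 rose (51.6%, against 18.6% of all tested genes), 2 fell (6.45%, against 19.2%) and 13 were not called. The median log2 fold change was 0.31. SLC2A1, the glucose transporter GLUT1, rose from 88.3 ± 6.22 to 200.2 ± 5.06 CPM (SD, n = 3 each; log2 fold change 1.18, edgeR adjusted p = 1.94e-08). NDRG1, a stress-induced protein of cell differentiation, was at 11.4 ± 2.37 CPM in siControl and rose to 31.7 ± 2.96 CPM in siMETTL3, by 1.46 on the log2 scale (edgeR adjusted p = 3.20e-06). BNIP3, a mitophagy receptor, rose by 0.69 on the log2 scale (edgeR adjusted p = 7.78e-06). PFKFB4, a regulator of glycolysis whose span overlaps UCN2, had the list's largest rise, 1.62 on the log2 scale (edgeR adjusted p = 1.27e-05), below the 2.77 of STC1. STC2 did not share this direction, at -0.26, and was not called.

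Of the genes for the hypoxia-inducible factors themselves, HIF1A was at 323.5 ± 16.3 CPM in siControl and 320.4 ± 5.33 CPM in siMETTL3 (SD, n = 3 each; log2 fold change -0.013, edgeR adjusted p = 0.878), and the sign of this value changed with scaling to total counts. EPAS1, which encodes HIF-2α, was at 547 ± 25.6 CPM in siControl and rose to 704 ± 6.43 CPM in siMETTL3, by 0.36 on the log2 scale (edgeR adjusted p = 0.000227). The genes that fell were ENO1, a glycolytic enzyme, by 0.19 (edgeR adjusted p = 0.0133), and LOX, a collagen cross-linking enzyme whose span overlaps SRFBP1, by 0.46 (edgeR adjusted p = 0.0225). Neither passed the threshold without siMETTL3 replicate 1 (adjusted p = 0.0857 and 0.109). ENO1 also missed the threshold without siMETTL3 replicate 2 (0.0501) or siMETTL3 replicate 3 (0.0555), and LOX without siControl replicate 2 (0.109). The count of genes that fell was between 0 and 2 when a library was left out.

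Calcium and phosphate genes were listed because of the hormones' first known role. Of 32 listed genes 20 were tested, 5 rose (25.0%, against 18.6% of all tested genes) and 0 fell (0.0%, against 19.2%). The share that rose is near that of all tested genes. The list had a median log2 fold change of 0.080. At an unadjusted p under 0.05 in edgeR 1 gene of the list was lower, and limma-voom also called 0 lower. CASR, the calcium-sensing receptor, had at most 6 counts in a library and was not tested. STIM1, the calcium sensor of the endoplasmic reticulum, was at 13.5, 11.9 and 10.1 CPM in siControl and at 17.8, 17.1 and 18.8 CPM in siMETTL3, with no overlap. It rose by 0.59 on the log2 scale (edgeR adjusted p = 0.00139). ORAI1, the channel that STIM1 opens, rose by 0.38 (edgeR adjusted p = 0.0116), but not without siMETTL3 replicate 1 (adjusted p = 0.0552).

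ATP2B4, a plasma membrane calcium pump, rose by 0.29 (edgeR adjusted p = 0.00272). ALPL, an alkaline phosphatase that sets phosphate free, rose by 0.22 (edgeR adjusted p = 0.0340) and stayed past the threshold only when siControl replicate 3 was the library left out; with any other left out the adjusted p was 0.0511 (siControl replicate 1), 0.147 (siControl replicate 2), 0.0606 (siMETTL3 replicate 1), 0.101 (siMETTL3 replicate 2) or 0.120 (siMETTL3 replicate 3). The count of genes of this list that rose was 2 without siMETTL3 replicate 1, and it was 3 when siControl replicate 2 or either of the other siMETTL3 libraries was left out. All 4 lists were written with earlier results of these data known, and STC1 and STC2 were left out of each.

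**Figure D4:**
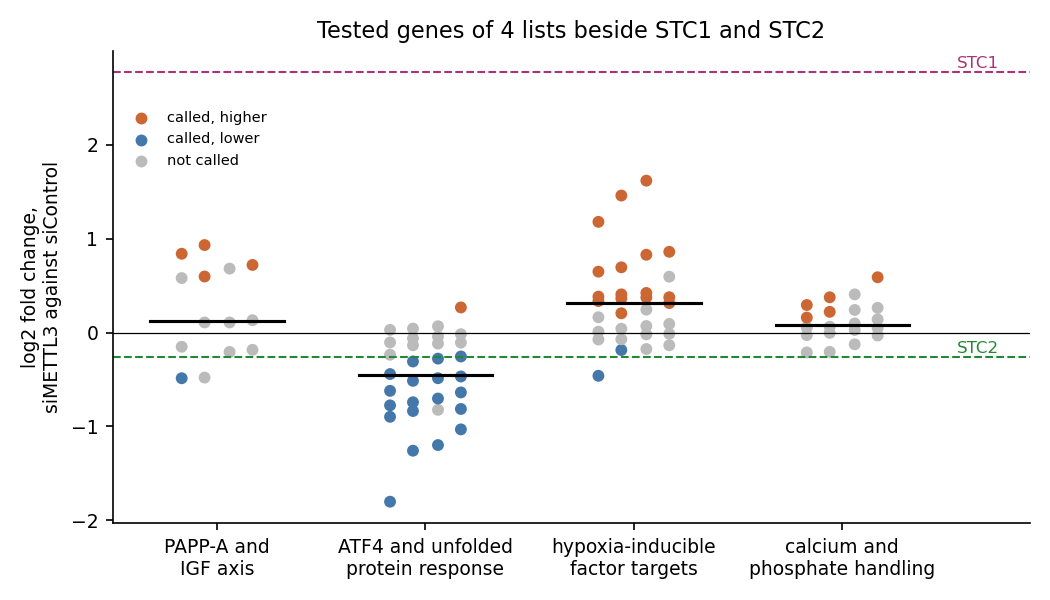
Log2 fold change, siMETTL3 against siControl, of the tested members of each of the 4 gene lists, 1 point per gene; orange and blue points passed the threshold as higher or lower, and the solid bars are medians. The dashed lines mark STC1 (2.77) and STC2 (-0.26); no listed gene reached STC1, and 19 of the 32 ATF4 and unfolded protein response genes lay below STC2.

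The genes around each stanniocalcin on its chromosome did not share one direction. STC1 lies on chromosome 8 (23841929 to 23854806, GRCh38), on the minus strand, and overlaps no other gene of the tables. Within 500 kb of it are 6 protein-coding genes, of which 3 were tested, 1 rose and 0 fell. Of all tested genes 18.6% rose and 19.2% fell, so 1 call among 3 is not set apart from that background. SLC25A37, a mitochondrial iron importer 266.5 kb away, had a log2 fold change of -0.081 (edgeR adjusted p = 0.385). On the other side the nearest tested gene was NEFM, a neurofilament subunit 1.06 Mb away, at -0.080 (edgeR adjusted p = 0.615). The gene of this window that rose, named after its value was seen, was LOXL2, a matrix cross-linking enzyme 416.6 kb away, by 0.69 on the log2 scale (edgeR adjusted p = 0.000383). It overlaps ENTPD4, which was at -0.055, and the pair can share reads.

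Around STC2 there are 7 genes within 500 kb, and 6 of them were tested. BOD1, a chromosome segregation factor 277.6 kb away, fell from 97.8 ± 11.7 to 65.4 ± 5.33 CPM (SD, n = 3 each; log2 fold change -0.58, edgeR adjusted p = 0.000283). BNIP1, a membrane trafficking protein 150.3 kb away, had a value of -0.0084 (edgeR adjusted p = 0.965), whose sign changed with upper quartile scaling and with total counts. None of the 5 tested genes other than BOD1 was called by edgeR. With 37.8% of all tested genes called, 19.2% as lower, 1 call among 6 is not set apart from the background.

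The genes whose values across the 6 libraries were most like those of each stanniocalcin were found by the root-mean-square (RMS) difference of log2 CPM, after subtracting each gene's siControl mean. For STC1 the nearest were DYSF (RMS 0.105), TKTL1 (0.125), CARTPT (0.168), SH3TC2 (0.203) and SP6 (0.267). CARTPT, which encodes the neuropeptide CART, had the highest CPM of them, not scaled to gene length. It was at 28.0 ± 7.31 CPM in siControl and 172 ± 7.07 CPM in siMETTL3 (SD, n = 3 each). Only 3 of 11763 genes were within an RMS of 0.2 of STC1, and the median RMS was 1.97; as STC1 was chosen by its rise in these libraries, this describes the choice. For STC2 the nearest were ZNF619 (0.0503), AK5 (0.0599), FAM32A (0.0626), PRIM1 (0.0640) and TOR3A (0.0649). The span of ZNF619 overlaps ZNF620, and that of PRIM1 overlaps AC117378.1, HSD17B6 and NACA. That of TKTL1 overlaps TEX28, and such genes can share reads. Within 0.2 of STC2 were 4252 genes, with a median RMS of 0.241. Since the siMETTL3 values of STC2 were close to its siControl mean, such genes can include some with little or no difference between the groups.

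**Figure D5:**
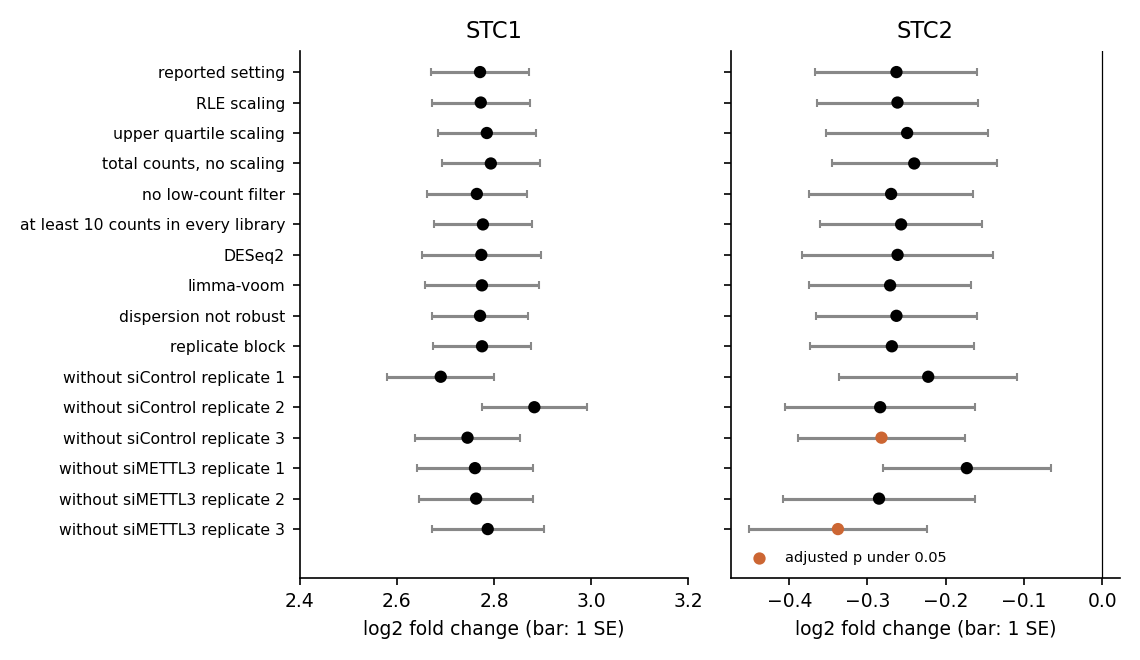
Log2 fold change ± 1 SE of STC1 (left) and STC2 (right) under the reported setting, other scalings, filters and tools, the replicate block, and with each library left out. STC1 stays between 2.69 and 2.88, and STC2 stays below 0 (-0.34 to -0.17); orange marks the 2 settings in which the adjusted p of STC2 is under 0.05, and its threshold does not apply to STC1.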

How the data were processed

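The deposited values were raw counts per gene, in 1 table for each sample. The authors counted, per the file headers, with featureCounts 1.5.3 over whole gene spans of GENCODE release 33, introns included, with reads over several genes given to each and no strand option set. Overlapping genes can therefore share reads. The submitters' processing notes also name FastQC 0.11.5, Trimmomatic 0.36, HISAT2 2.1.0 and GRCh38.

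Genes were filtered with filterByExpr, scaled by TMM and tested in edgeR 4.0.16 (R 4.3.3; robust glmQLFit and glmQLFTest, 3 libraries against 3, no covariate), with Benjamini-Hochberg adjustment over all 15311 tested genes and a threshold of 0.05. The script was tested on simulated data. CPM are counts per 1000000 of TMM-scaled library size, computed here. Groups and replicate numbers came from the sample titles. Likeness used 2 prior counts. "Rose" and "fell" refer to genes past the threshold.

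Alternatives were other scalings and filters, DESeq2 1.42.0, limma-voom 3.58.1, the replicate block and each library left out. Named genes are the stanniocalcins, METTL3, fixed partners, and up to 4 genes per list and direction with the smallest adjusted p. They also include nearest tested neighbours, the genes next to STC1 in rank, and the 5 most alike. LOXL2 and 6 marker genes were added after their values were seen. So were ENTPD4, ATF5, PSPH, GDF15, CEBPB, IGFBP2, IGFBP3, HSPA5 and the other unfolded protein response genes. From ENTPD4 on, these are not among the 44 named genes compared across settings. The members and lists were chosen with earlier results of these data known. Protein sequences were not analysed here. Precision reflects the number of reads, not of molecules.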

Additional observations from a re-analysis of the deposited data

How the results depend on the processing

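With all libraries, STC1 stayed between 2.76 and 2.79 and METTL3 between -0.72 and -0.69 (log2 fold change). STC2 stayed between -0.27 and -0.24 with an adjusted p between 0.0516 (limma-voom) and 0.0926 (total counts). With the replicate block STC2 was at -0.27 (edgeR adjusted p = 0.0547), STC1 at 2.78, and 3047 genes were called higher and 3119 lower. Same-numbered libraries correlated at 0.0401, 0.0494 and 0.0671, and differently numbered ones between -0.0642 and 0.0263. Each library was thus most alike to its same-numbered partner, but weakly. The values were under the 0.1 set to mark pairs, so the block was left out of the reported setting. With 1 library left out STC2 was between -0.34 and -0.17. The genes of the PAPP-A and IGF axis that fell numbered 2 with the replicate block and 1 to 3 with a library left out. With a library left out, 0 to 1 genes of the ATF4 list rose, 0 to 2 of the hypoxia list fell, and 2 to 6 of the calcium and phosphate list rose. BNIP1 was at 0.0056 with upper quartile scaling, 0.014 with total counts and between -0.078 and 0.074 with a library left out. HIF1A was at 0.011 with total counts and between -0.036 and 0.028 with a library left out, and NEFM between -0.16 and 0.024. The cause was not tested. Over 44 named genes, 391 of 396 values with all libraries and 235 of 264 with a library left out kept direction and side of the threshold. Depth limits PAPPA2, with at most 118 counts in a library, and genes such as CASR. A pseudocount or filter on normalised values was not run because the tables hold counts.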
